A study of Mus musculus with 2 samples.

Results

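The receptors of the TGF-beta family other than the activin type II receptors Acvr2a and Acvr2b were followed across the cell classes of KPCA tumors. They are 10 genes, chosen by symbol (Acvr1, Acvr1b, Acvr1c, Acvrl1, Bmpr1a, Bmpr2, Tgfbr1, Tgfbr2, Tgfbr3 and Eng), of the 32285 genes counted. No measured value entered that choice, and every symbol matched 1 gene. Signals of this family pass through a complex of type II and type I receptors, in which the type II kinase activates the type I kinase, which then phosphorylates SMAD proteins. Type I receptors for TGF-beta and activin use Smad2 and Smad3, those for BMPs use Smad1, Smad5 and Smad9, and co-receptors without kinase activity present ligand to the complex. In blood vessels the pairing of Acvrl1 with the co-receptor Eng and with Bmpr2 is known for its role in vascular growth and in inherited vascular malformation.

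Tumor cells were profiled by droplet single-cell RNA sequencing, in which unique molecular identifiers (UMIs) count captured transcripts per cell barcode, with 1 library per genotype, each from 4 tumors pooled at day 10 after grafting. KPCA is a mouse ovarian cancer model grown from fallopian tube epithelial cells that carry Trp53R172H and overexpress Ccne1 and Akt2, among other changes. It was grafted into the peritoneum of female C57BL/6J mice aged 12 to 16 weeks. The KPCA.FSTKO tumors came from a clone in which Fst, encoding the activin antagonist follistatin, was deleted, and the KPCA.FSTKO_hFSTL3 tumors came from a clone derived from it that stably carries human FSTL3, so that both groups lack Fst in the grafted cells and each genotype is a single clone. The KPCA.FSTKO library held 168214773 UMIs and the KPCA.FSTKO_hFSTL3 library 80391504, with medians of 16368 and 15122.5 UMIs per barcode, and 12 barcodes occurred in both. With 1 library per genotype no value has a replicate and no test was made. The intervals given are exact 95% intervals (Poisson for levels, conditional binomial for ratios, Clopper-Pearson for shares of cells) and cover counting error only.

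Cells were assigned to classes one by one from marker genes that do not include the receptors. In KPCA.FSTKO, 6777 barcodes passed the filters on mitochondrial share and gene number, and the gates held 4088 cancer cells, 395 stromal cells (80 with mesothelial markers, 70 with mural markers and 245 others, called fibroblasts here), 103 endothelial cells and 1147 immune cells (842 of them macrophage-like). The classes differed in depth, with a median of 26145.5 UMIs in cancer cells, 17066 in stromal cells, 6190 in endothelial cells and 11201 in immune cells. The finer stromal groups share their fibroblast markers. The median per 10000 UMIs on that list was 151 in the 80 cells with mesothelial markers, 91.6 in those with mural markers and 125 in the others. The mural list stood at 7.71, 72.9 and 5.01 in the same order, and the mesothelial list at 4.99, 0 and 0.843. These lists also set the groups, and whether the groups are separate types was not tested. Defining markers of the 4 classes were high where the names place them. Markers of this kind set the gates, so their levels describe the classes and are no check of the names. The keratin Krt18 was at 921 counts per 1000000 UMIs of the class (CPM) in cancer cells and at 63.2 or less in the other 3 classes. Pecam1 and Cdh5 summed to 2121 CPM in endothelial cells and 1.78 CPM in cancer cells, Col1a1 stood at 5405 CPM in stromal cells, and the leukocyte antigen Ptprc at 365 CPM in immune cells. Epcam and Pax8, the usual epithelial and tubal markers, were low in the cancer cells at 5.2 and 9.8 CPM. Messages of one class also occurred in others: the keratins Krt8, Krt18 and Krt19 together reached 6.02% of their cancer-cell level in stromal cells, 6.00% in endothelial cells and 4.26% in immune cells.

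Both libraries are labelled as omental tumor, and the KPCA.FSTKO_hFSTL3 library stood apart. Of its 4041 filtered barcodes, 82.0% were rich in messages of pancreatic acinar digestive enzymes, against 0.487% in KPCA.FSTKO, and their median mitochondrial share was 11.5%. The same barcodes carried messages of other classes, with medians per 10000 UMIs of 28.3 for the cancer marker list (33.3 in that library's cancer cells), 28.8 for the macrophage list (0.360) and 12.4 for the fibroblast list (0.360). Without the acinar rule 3295 barcodes in place of 229 passed as cancer cells. The acinar-rich barcodes were kept out of the 4 classes, which left 229 cancer cells, 58 stromal cells, 9 endothelial cells and 135 immune cells. The 9 endothelial cells held 166843 UMIs in all. All 4 classes were deeper than in KPCA.FSTKO, with medians of 42105 UMIs in cancer, 24446.5 in stromal, 19243 in endothelial and 20191 in immune cells. Levels are therefore described in KPCA.FSTKO first, and the second library is used to ask whether an order of classes was also seen there.

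The promoters of Eng, Tgfbr2 and Tgfbr1 are shown because these receptors were higher in endothelial than in cancer cells and their windows lie wholly upstream of the annotated gene. Each is the 250 bases before the start given by RefSeq for GRCm38.p6, in the direction of transcription, with every copy of GGAA or its reverse complement TTCC, the core recognised by ETS factors, in capitals.
Eng, chr2:32646345-32646594, plus strand: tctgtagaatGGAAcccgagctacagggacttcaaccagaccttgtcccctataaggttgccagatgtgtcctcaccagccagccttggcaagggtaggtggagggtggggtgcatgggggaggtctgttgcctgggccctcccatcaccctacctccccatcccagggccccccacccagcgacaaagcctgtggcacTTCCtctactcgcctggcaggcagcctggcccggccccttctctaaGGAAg
Tgfbr2, chr9:116175364-116175613, minus strand: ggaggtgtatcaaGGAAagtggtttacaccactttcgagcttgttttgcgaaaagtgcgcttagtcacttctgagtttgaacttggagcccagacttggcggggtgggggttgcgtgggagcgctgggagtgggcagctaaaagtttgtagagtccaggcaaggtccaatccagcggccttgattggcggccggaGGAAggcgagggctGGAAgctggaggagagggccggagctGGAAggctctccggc
Tgfbr1, chr4:47352972-47353221, plus strand: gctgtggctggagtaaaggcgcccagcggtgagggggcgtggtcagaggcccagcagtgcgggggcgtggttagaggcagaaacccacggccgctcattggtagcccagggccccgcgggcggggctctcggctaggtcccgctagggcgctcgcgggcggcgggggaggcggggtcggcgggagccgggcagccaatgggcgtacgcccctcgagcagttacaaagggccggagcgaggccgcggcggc
The Eng window held 3 copies, the Tgfbr2 window 4 and the Tgfbr1 window shown 0. RefSeq lists another start for Tgfbr1, inside the gene, whose window held 5 copies and no GGGCGG, and the window of Bmpr2, also higher in endothelial cells, held 6. Copies of these letters are common, since 93.4% of 32851 mouse promoters of this length held at least 1 and the median was 3. As many copies as in Eng occurred in 54.7% of promoters, as many as in Tgfbr2 in 33.4%, as many as in the other Tgfbr1 window in 18.0% and as many as in Bmpr2 in 8.69%. The letters GGGCGG, read on both strands, occurred 2 times in the Tgfbr1 window shown and were not found in those of Eng and Tgfbr2, against 32.7% of promoters with at least 1. The windows were rich in G and C, at 62.4% in Eng, 58.4% in Tgfbr2 and 74.8% in Tgfbr1, with a median of 52.4% over all promoters. These matches describe the sequence and were not tested as binding sites. Of the 10 receptors, 8 had a promoter in the table.

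Endothelial cells stood out for the vascular pair Acvrl1 and Eng. Acvrl1, also called ALK1, is a type I receptor that binds BMP9 and BMP10 (chromosome 15, 101128522 to 101145336 in GRCm38). It was at 85.4 CPM (69.2 to 104; 96 UMIs) in endothelial cells, 27.8 CPM in immune cells, 17.1 CPM in stromal cells and 0.345 CPM (0.246 to 0.472; 39 UMIs) in cancer cells. The intervals of the 4 classes did not overlap, and the endothelial level was 247 times the cancer level (169 to 369), a log2 ratio of 7.95 that became 6.73 after thinning (8 against 3 UMIs). The cancer-cell level was 0.404% of the endothelial one, beside 0.0839% for Pecam1 and Cdh5 together. In cancer cells Tyrobp and Lyz2 together stood at 0.509% of their immune level, and Col1a1 and Dcn at 0.886% of their stromal level. The part of messages of these classes in the cancer-cell Acvrl1 value was not tested. Within the immune class Acvrl1 was found in macrophages at 29.4 CPM, while the 77 T and NK cells held 0 UMIs, which at a floor of 3 counts allows 6.62 CPM. Among stromal cells the 3 groups were close, with 21.7 CPM in cells with mural markers, 14.1 CPM in cells with mesothelial markers and 16.9 CPM in the others.

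Eng, or endoglin (chromosome 2, 32646595 to 32682669), is the co-receptor that presents BMP9 and TGF-beta to endothelial receptor complexes. Its level was 444 CPM (406 to 485; 499 UMIs) in endothelial cells, against 16.8 CPM in immune, 16.3 CPM in stromal and 5.14 CPM in cancer cells. The endothelial level was 86.3 times that of cancer cells (76.4 to 97.5), and the stromal and immune levels did not differ beyond their counting error. Within the immune class Eng was at 18.3 CPM in macrophages, 3.56 CPM (1 UMI) in neutrophils and 2.21 CPM (1 UMI) in T and NK cells. Erythroid cells, which serve as a background class below, had 5.48 CPM (0.664 to 19.8; 2 UMIs). In them a median of 8719 of every 10000 UMIs came from the erythroid marker list. That lowers the CPM and the thinned share of every other gene, so these values may understate background. The cancer-cell level did not differ from the erythroid one beyond counting error. Stromal cells with mural markers had 44.3 CPM, against 11.4 CPM in those with mesothelial markers and 10.4 CPM in the others. The mural list holds genes known from cells that wrap small vessels. It also holds Acta2 and Tagln, which the study uses as markers of myofibroblasts, and the gate does not separate these kinds of cell. At least 1 Eng UMI was found in 68.9% of endothelial cells and in 12.7% of cancer cells, although the cancer cells were deeper. With every cell thinned to 1000 UMIs the shares were 35.0% (25.8 to 45.0) and 0.636%. For Acvrl1 the thinned share was 6.80% of endothelial and 0.0734% of cancer cells, and 39.8% and 0.807% before thinning. Of the 41 endothelial cells with an Acvrl1 UMI, 92.7% also held Eng, compared with 53.2% of the endothelial cells without one. Depth was not held equal in that comparison, and deeper cells hold more of every gene.

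**Figure D1:**
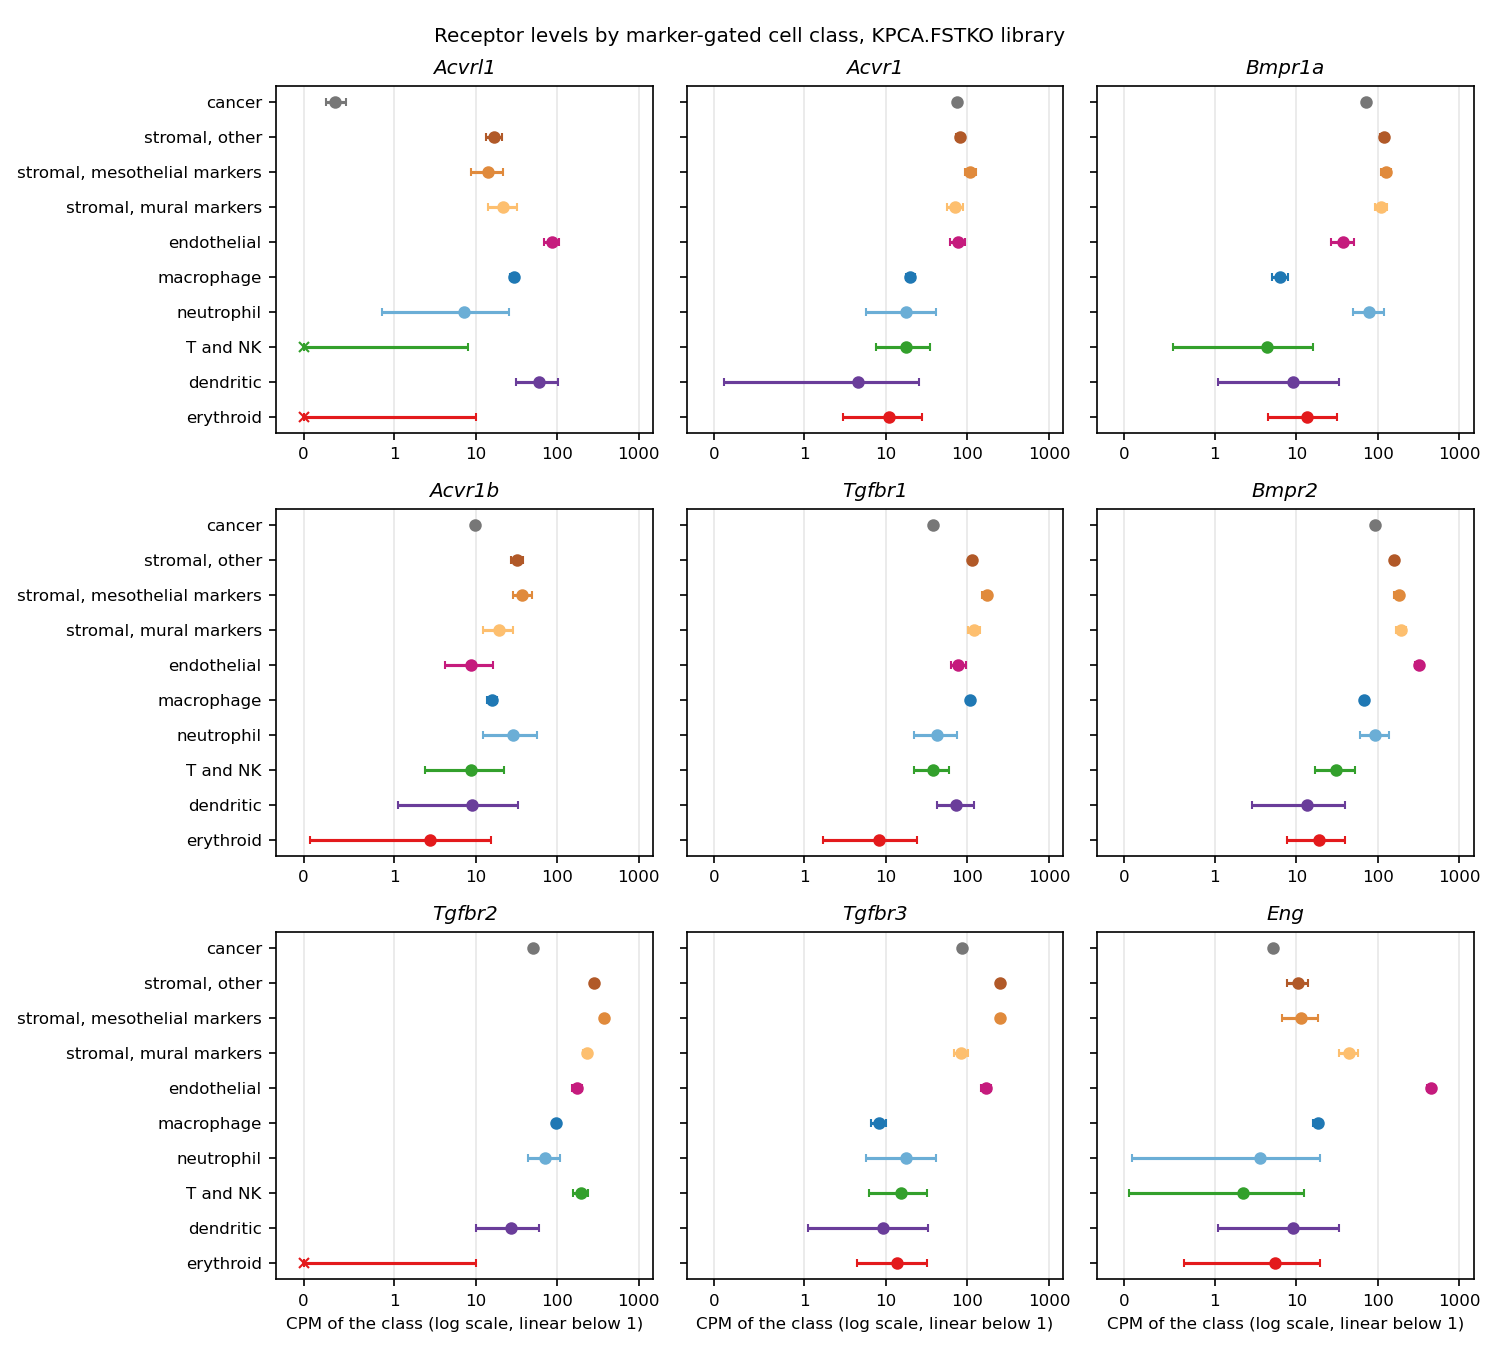
Level of 9 receptors (Acvr1c left out) in 10 finer cell classes of KPCA.FSTKO, in CPM on an axis that is logarithmic above 1 and linear below, with exact 95% Poisson intervals (counting error only); crosses mark 0 UMIs. Acvrl1 and Eng are highest in endothelial cells, at 85.4 and 444 CPM, whereas Tgfbr2 is above 200 CPM in the 3 stromal groups and Bmpr1a is at 6.34 CPM in macrophages.

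The other type I receptors had broader patterns. Acvr1, or ALK2 (chromosome 2, 58388644 to 58567157), which serves BMPs and can be bound by activin without signalling, was at 74.8 CPM in cancer cells, 85.2 CPM in stromal cells and 76.5 CPM in endothelial cells. The endothelial and cancer levels did not differ beyond counting error, with a log2 ratio of 0.03 (-0.29 to 0.34), but the ratio was -0.37 with TMM scaling, -0.44 with clusters in place of gates and -0.67 after thinning (5 endothelial UMIs). Immune cells had 18.9 CPM, a ratio to cancer cells of 0.253. Bmpr1a, or ALK3 (chromosome 14, 34410734 to 34503341), a BMP receptor, was at 118 CPM in stromal cells, 72.1 CPM in cancer cells, 37.4 CPM (26.9 to 50.5; 42 UMIs) in endothelial cells and 7.94 CPM in immune cells. All neighbouring classes in that order had separate intervals. The endothelial value depended on how cells were taken, since the log2 ratio to cancer cells of -0.95 became -1.91 with clusters in place of gates, -2.03 as the mean CPM per cell and -3.02 after thinning, where 1 UMI was left. Macrophages had 6.34 CPM and the 98 neutrophils 78.2 CPM (49.0 to 118; 22 UMIs), above the class as a whole. On the cancer marker list the neutrophils had a median of 6.26 per 10000 UMIs, against 1.56 in macrophages and 31.4 in cancer cells. The part of cancer-cell messages in the neutrophil value was not tested.

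Tgfbr1 (ALK5; chromosome 4, 47353222 to 47414931) and Acvr1b (ALK4; chromosome 15, 101174067 to 101213684), the type I receptors for TGF-beta and for activin, were both lowest or near lowest in cancer cells. Tgfbr1 was at 126 CPM in stromal, 103 CPM in immune, 77.4 CPM in endothelial and 37.6 CPM in cancer cells. Stromal cells with mesothelial markers had 172 CPM. Within the immune class macrophages had 107 CPM, against 42.7 CPM (22.0 to 74.5) in neutrophils and 37.5 CPM (21.8 to 60.1) in T and NK cells. The neutrophil and the T and NK levels did not differ from cancer cells beyond counting error. Acvr1b was at 31.3 CPM in stromal cells, 15.7 CPM in immune cells, 9.92 CPM in cancer cells and 8.90 CPM in endothelial cells, where it rested on 10 UMIs and did not differ from cancer cells beyond counting error. Acvr1c, or ALK7 (chromosome 2, 58267453 to 58357895), a receptor of nodal and certain GDFs and activins, was close to undetected. It had 24 UMIs in all cancer cells, 3 in stromal cells and 0 in the endothelial and immune cells, out of 28 in the whole filtered library.

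The type II receptors were found in every one of the 4 classes. Bmpr2 (chromosome 1, 59763400 to 59879014), the type II receptor for BMPs that also joins Acvrl1, was at 316 CPM (284 to 351; 355 UMIs) in endothelial cells, 169 CPM in stromal cells, 91.3 CPM in cancer cells and 68.5 CPM in immune cells. The ratio of endothelial to cancer cells was 3.46 (3.11 to 3.85). The unthinned share of cells with a Bmpr2 UMI hid this order, with 70.9% of endothelial and 73.5% of the deeper cancer cells. At 1000 UMIs per cell the shares were 23.3% and 9.15%. Erythroid cells, which had a median of 4275.5 UMIs, most of them from erythroid marker genes, served as a background class. A Bmpr2 UMI was found in 4.17% of these cells before thinning.

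Tgfbr2 (chromosome 9, 116084293 to 116175360), the type II receptor for TGF-beta, was highest in stromal cells at 297 CPM, followed by 176 CPM in endothelial cells, 97.5 CPM in immune cells and 50.7 CPM in cancer cells. The stromal level was 5.86 times the cancer level (5.57 to 6.16). Stromal cells with mesothelial markers stood at 381 CPM (350 to 413), those with mural markers at 233 CPM and the others at 287 CPM. Within the immune class T and NK cells stood at 194 CPM (156 to 239; 88 UMIs), above the 97.5 CPM of the class as a whole. Erythroid cells held 0 Tgfbr2 UMIs, which at 3 counts allows 8.23 CPM. After thinning, 24.1% of stromal and 5.43% of cancer cells had a Tgfbr2 UMI (84.1% and 56.3% before thinning).

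Tgfbr3, or betaglycan (chromosome 5, 107106570 to 107289629), is the co-receptor that presents TGF-beta2 and, with inhibin, holds activin type II receptors away from activin. It was at 224 CPM in stromal cells, 171 CPM in endothelial cells, 86.9 CPM in cancer cells and 8.24 CPM in immune cells. Stromal cells with mesothelial markers and the fibroblasts were at 254 and 252 CPM, whereas those with mural markers had 83.6 CPM. A single endothelial cell held 37 of the 192 endothelial Tgfbr3 UMIs. A Tgfbr3 UMI was found in 6.89% of immune cells, 64.2% of cancer cells and 4.17% of erythroid cells, and after thinning in 0.785%, 8.71% and 1.39%. The erythroid share after thinning is 1 of 72 cells (0.0352 to 7.50%), too few to set against the immune share. Unthinned, the erythroid level was 13.7 CPM (4.45 to 32.0; 5 UMIs) for Tgfbr3 and the same for Bmpr1a. Neither immune level, at 8.24 and 7.94 CPM, was above it. The immune levels of Tgfbr3 and Bmpr1a were 0.0948 and 0.110 times the cancer levels, while the 3 keratins stood at 4.26% of theirs. The part of cancer-cell messages in these values was not tested.

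Set side by side, 5 of the 9 receptors with enough UMIs were higher in endothelial than in cancer cells by the size rule, which asks for at least 100 UMIs over both classes and a CPM ratio of at least 2, or at most 0.5 for lower. They were Acvrl1, Eng, Bmpr2, Tgfbr2 and Tgfbr1, and 0 were lower, where 19.3% of all genes tested were higher and 19.1% lower (1626 higher and 3807 lower genes with TMM scaling, against 2529 and 2510). With TMM scaling Tgfbr1 left the higher receptors, at a log2 ratio of 0.65, and Bmpr1a became lower at -1.35. The count of 0 lower receptors changed in 9 of 16 alternatives. The median log2 ratio of the 9 receptors was 1.04, against 0.09 over all genes. Tgfbr3 lay just under the rule at a ratio of 1.97 (1.70 to 2.27) and Bmpr1a just short of lower at 0.519, while Tgfbr1 passed narrowly at 2.06 (1.65 to 2.55). In stromal cells 6 of 9 were higher (Acvrl1, Acvr1b, Tgfbr1, Tgfbr2, Tgfbr3 and Eng) and 0 lower, with 14.9% of all genes higher and 17.4% lower. The median was 1.66 against -0.15, and Bmpr2 was short of the rule at 1.86. In immune cells 3 of 9 were higher (Acvrl1 at 80.6, Eng at 3.26 and Tgfbr1 at 2.74 times the cancer level) and 3 lower (Acvr1 at 0.253, Bmpr1a at 0.110 and Tgfbr3 at 0.0948 times), where 17.7% of all genes were higher and 29.0% lower. Their median log2 ratio was 0.66, against -0.33 over all genes. After thinning, the immune log2 ratio of Acvrl1 went from 6.33 to 5.00 and that of Eng from 1.71 to 0.83, short of the rule, on 27 and 13 immune UMIs.

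The 3 comparisons share the cancer cells, so a low value there raises all 3 ratios at once. Acvrl1 and Eng are the receptors of which this holds most, since their cancer-cell levels were the smallest fractions of their highest class, at 0.404% and 1.16%. The direction of the endothelial ratios was also seen in KPCA.FSTKO_hFSTL3 for the 5 receptors named above. There Acvrl1 was 200 times as high in the 9 endothelial cells as in cancer cells (14 against 4 UMIs), Eng 82.3 times (56.1 to 122), Bmpr2 3.46 times (2.62 to 4.51), Tgfbr1 2.14 times (1.02 to 4.01) and Tgfbr2 2.06 times (1.23 to 3.25). In its immune cells Bmpr1a and Tgfbr3 were at 0.0676 and 0.0411 times the cancer level. Stromal Tgfbr2 was 4.05 times the cancer level.

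**Figure D2:**
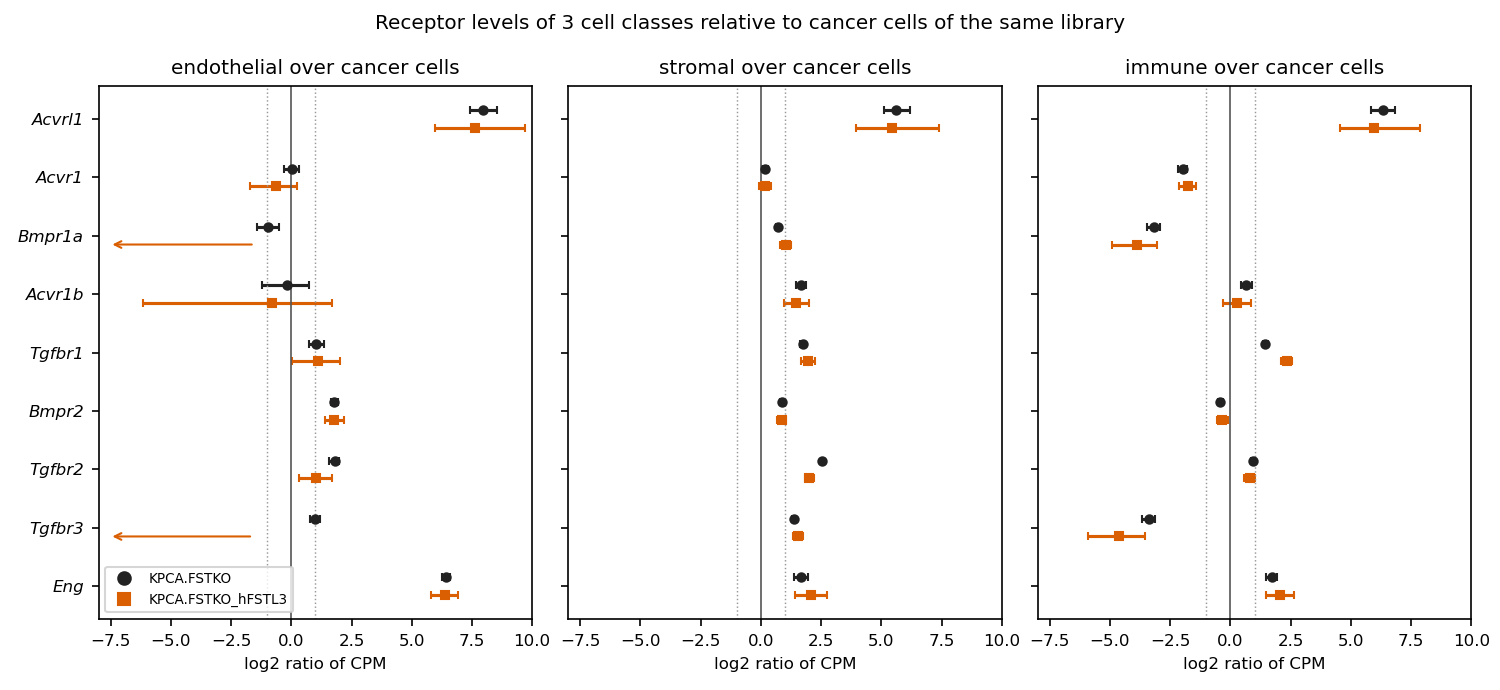
Log2 ratio of each receptor's CPM in endothelial, stromal and immune cells over cancer cells, in KPCA.FSTKO and in KPCA.FSTKO_hFSTL3, with exact 95% intervals (counting error only); dotted lines mark ratios of 2 and 0.5, and arrows start at the upper limit where a class of KPCA.FSTKO_hFSTL3 held 0 UMIs. The 5 receptors higher in endothelial cells of KPCA.FSTKO lie above 0 in both libraries, and Tgfbr3 is at 1.97 times the cancer level in one and at 0 UMIs in the other.

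Other genes of the pathway were set against the same shares of all genes, 19.3% higher and 19.1% lower in endothelial cells. Of 7 other receptors and accessory proteins with enough UMIs, 5 were higher in endothelial than in cancer cells. Among them were Nrp1, a co-receptor for VEGF and TGF-beta, at 579 against 59.4 CPM, Fkbp1a, which binds type I receptors and keeps them quiet, at 773 against 362 CPM, Acvr2a at 69.4 against 28.0 CPM and the pseudoreceptor Bambi at 40.9 against 0.584 CPM. Of the SMADs, 3 of 7 were higher and 0 lower in endothelial cells, including the BMP-activated Smad1 at 592 against 61.0 CPM and Smad5 at 101 against 21.5 CPM. In stromal cells 2 of 7 were higher, Smad1 at 127 CPM and Smad5 at 46.6 CPM, and 0 lower (14.9% and 17.4% of all genes). In immune cells 0 of 7 were higher and 1 lower, Smad3 at 27.2 against 62.4 CPM (17.7% and 29.0% of all genes). Of 12 target genes with enough UMIs in endothelial cells, 2 were higher and 2 lower, near the shares of all genes. Id3, an inhibitor of differentiation induced by BMP signals, was at 195 CPM in endothelial and 415 CPM in stromal cells, against 30.5 CPM in cancer cells.

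Ligands of the receptors were likewise spread over classes. Inhbb, encoding the activin B subunit, was at 297 CPM in endothelial and 0.354 CPM in cancer cells, whereas Inhba, the activin A subunit, was at 17.8 against 61.5 CPM. Of 7 TGF-beta and activin ligands, 3 were higher (Tgfb1, Tgfb2 and Inhbb) and 3 lower (Inhba, Gdf11 and Gdf15) in endothelial cells (19.3% and 19.1% of all genes). Of 3 BMP ligands, 2 were higher there, among them Bmp6 at 30.3 against 1.51 CPM, and 0 lower. In stromal cells, where Tgfbr2 was highest, Tgfb2 was at 316 against 13.2 CPM and Inhba at 140 against 61.5 CPM. These are levels per UMI of a class and not its total output. There 5 of 7 such ligands were higher and Gdf15 lower (14.9% and 17.4% of all genes). Immune cells had Tgfb1 at 133 CPM against 64.8 CPM in cancer cells, with 1 of 6 higher and 3 lower (17.7% and 29.0% of all genes). Of 12 targets in immune cells 2 were higher, among them Tgfbi at 610 against 104 CPM, and 6 lower (17.7% and 29.0% of all genes).

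Among the cancer cells, receptor levels varied widely between clusters. Cluster 11, a group of 275 cells with Kcnq5 among its leading genes, was compared with cluster 13, a group of 290 cells led by Rps26 and the small nucleolar RNA host genes Gas5 and Snhg8. Acvr1 was at 216 CPM in the first and 12.9 CPM in the second, Bmpr1a at 145 and 12.6 CPM, and Tgfbr1 at 114 and 6.32 CPM. Bmpr2 was at 214 and 22.7 CPM, Tgfbr2 at 104 and 14.9 CPM, and Tgfbr3 at 222 and 14.4 CPM. Eng moved least, at 4.70 and 1.72 CPM, with a log2 ratio of 1.45 whose interval reached 0. These clusters also differed in kind of RNA: 25.5% of UMIs in cluster 11 came from genes spanning over 100 kb, against 2.45% in cluster 13, while ribosomal protein genes took 6.93% and 42%. The median mitochondrial shares were 10.1% and 2.67%, and the median depth of cluster 11 was 7886 UMIs.

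Genes of any function followed the same split by genomic span. The median log2 ratio of cluster 11 over cluster 13 was -0.69 for 1364 genes of up to 10 kb, 2.41 for 2436 genes of 30 to 100 kb and 3.54 for 1074 genes of 100 to 300 kb. Acvr1 and Tgfbr3, which span 179 and 183 kb, had log2 ratios of 4.06 and 3.95, and Bmpr2, at 116 kb, 3.24. Tgfbr1, at 61.7 kb, had 4.18, Bmpr1a, at 92.6 kb, 3.52, Acvr1b, at 39.6 kb, 3.86 and Tgfbr2, at 91.1 kb, 2.80. The part of span or of nuclear RNA in the receptor levels of these clusters was not tested. Between endothelial and cancer cells the corresponding medians by span ran from -0.39 at up to 10 kb to 0.87 above 300 kb. Those medians were -0.06 at 10 to 30 kb, 0.37 at 30 to 100 kb and 0.71 at 100 to 300 kb. Of the 5 receptors higher in endothelial cells, Acvrl1 and Eng span 16.8 and 36.1 kb. Tgfbr1 spans 61.7 kb, Tgfbr2 91.1 kb and Bmpr2 116 kb. The part of span in the endothelial ratios was not tested.

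**Figure D3:**
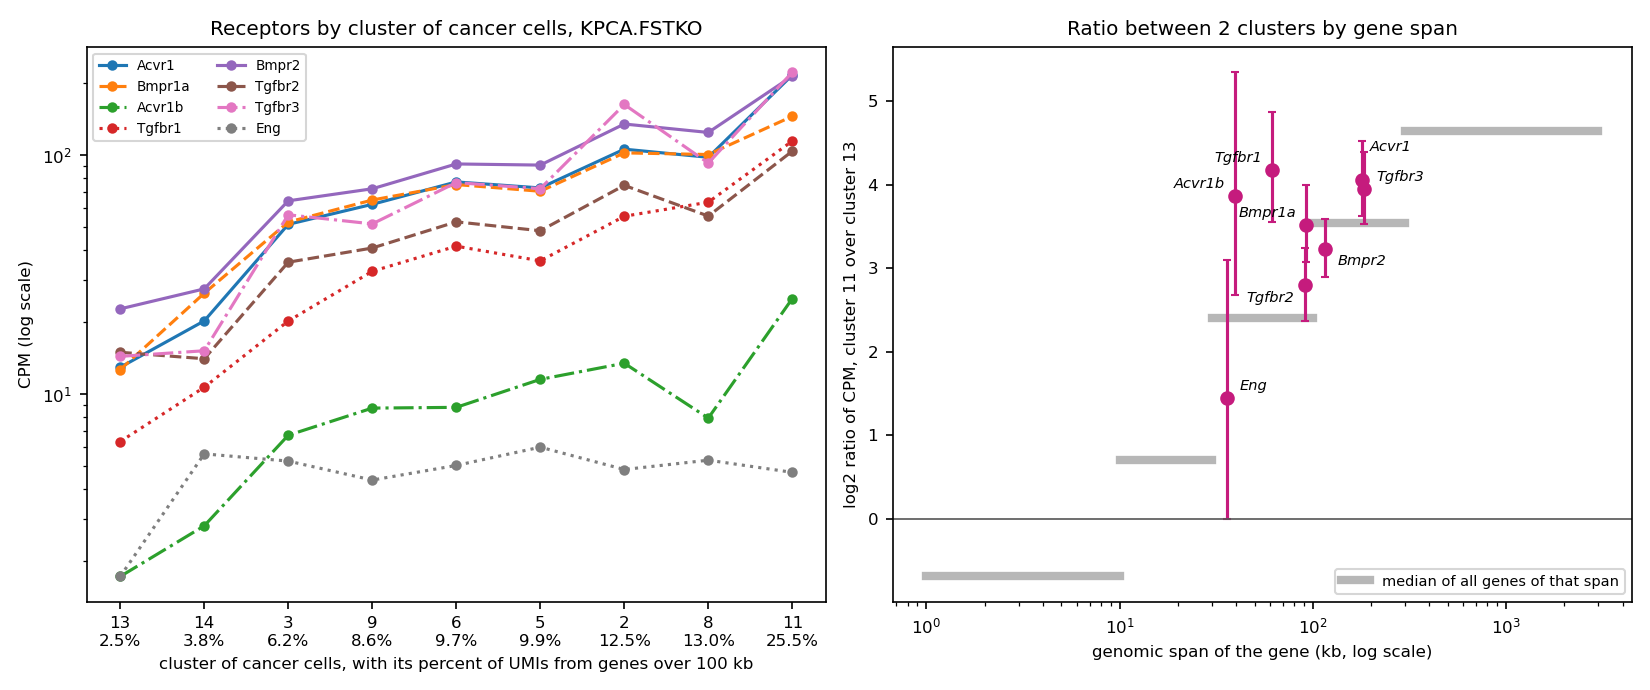
Left, CPM of 8 receptors (log axis) in the clusters of KPCA.FSTKO cancer cells, ordered by the percent of UMIs from genes over 100 kb; right, log2 ratio of cluster 11 over cluster 13 for each receptor with its 95% interval against its genomic span in kb (log axis), and grey bars at the median of all genes of that span. The receptors other than Eng are highest in cluster 11, and the median of all genes also goes up with span, from -0.69 to 4.64.

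Between the genotypes, cancer cells gave 0 of 8 receptors higher and 0 lower in KPCA.FSTKO_hFSTL3 by the size rule, where 3.06% of all genes were higher and 7.34% lower. Below that size the intervals of 5 of the 8 left out 0. Acvr1 was at 94.2 CPM against 74.8 CPM, a log2 ratio of 0.33 (0.23 to 0.43). Ratios within clusters were computed for cancer clusters 2, 3, 5, 6 and 9 and not for 8, 11, 13 and 14. There that of Acvr1 ran from 0.27 to 0.60, with 4 of 5 intervals above 0. Tgfbr3 was at 64.3 against 86.9 CPM, -0.43 (-0.55 to -0.32), but ranged from -0.74 to 0.35 by cluster, with 4 of 5 intervals below 0 and 1 above. Tgfbr1 was at 27.9 against 37.6 CPM, -0.43 (-0.61 to -0.25), and 2 of its 5 cluster intervals lay below 0. Bmpr1a had -0.23 (-0.36 to -0.11), with 0 of 5 cluster intervals apart from 0, and Bmpr2 had 0.16 (0.07 to 0.26), with 3 of 5 above 0. The genotype cannot be told apart from the library, the clone or the pool of tumors.

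In stromal cells 0 of 9 receptors passed the rule in either direction (1.5% of all genes higher, 2.35% lower). Tgfbr2 was at 224 CPM in KPCA.FSTKO_hFSTL3 against 297 CPM, a log2 ratio of -0.41 (-0.57 to -0.25). The intervals of Acvr1, at 0.32 (0.07 to 0.57), and Tgfbr3, at -0.25 (-0.43 to -0.07), also left out 0. The makeup of the class also differed, with 17 cells carrying mesothelial markers, 20 carrying mural markers and 21 others of 58, against 80, 70 and 245 of 395. In immune cells 1 of 9 was lower and 0 higher (1.88% of all genes higher, 3.44% lower): Tgfbr3, with 7 UMIs against 111, at 2.64 against 8.24 CPM, a log2 ratio of -1.64. Without the barcode filter that ratio turned to 0.33 (30 against 116 UMIs), and the count of lower receptors changed in 10 of 16 alternatives. Together the keratins Krt8, Krt18 and Krt19 were also lower in the immune cells of KPCA.FSTKO_hFSTL3, at 59.2 against 117 CPM. That was 2.02% against 4.26% of their cancer-cell level. Median depth of the immune cells was 20191 against 11201 UMIs. The part of depth and of cancer-cell messages in the immune values of Tgfbr3 and Bmpr1a was not tested. Tgfbr1 was at 141 against 103 CPM there, a log2 ratio of 0.46 (0.29 to 0.62). The immune class differed in makeup, with 122 macrophage-like cells of 135 against 842 of 1147 and 0 neutrophil-like cells against 98, and in macrophage-like cells alone the log2 ratio was 0.41. Acvr1, Bmpr1a and Bmpr2, also short of the size rule, had immune log2 ratios of 0.54 (0.14 to 0.92), -0.94 (-1.98 to -0.04) and 0.24 (0.02 to 0.46).

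In endothelial cells 1 of 5 receptors was lower and 0 higher (2.15% of all genes higher, 8.22% lower). This was Tgfbr3, with 0 UMIs in 9 cells against 192 UMIs in 103 cells. Setting 0 to 3 counts over the class made it 9.50-fold lower, and the exact upper limit of the log2 ratio was -2.94. With barcodes past several gates kept, 11 endothelial cells held 10 Tgfbr3 UMIs, and with clusters in place of gates 22 cells held 20 UMIs, so the value rests on which few cells are taken. Eng was at 414 against 444 CPM, with a log2 ratio of -0.10 (-0.49 to 0.26), Acvrl1 at 83.9 against 85.4 CPM and Bmpr2 at 354 against 316 CPM, within counting error. Tgfbr2, the other of the 5, was at 114 against 176 CPM, a log2 ratio of -0.63 whose interval (-1.39 to 0.05) held 0. Bmpr1a, too low for the size rule, also had 0 UMIs, against 42 in KPCA.FSTKO. It was 2.08-fold lower at that floor, with an exact upper limit of the log2 ratio of -0.69. Together the keratins Krt8, Krt18 and Krt19 were also lower in the endothelial cells of KPCA.FSTKO_hFSTL3, at 53.9 against 166 CPM. That was 1.84% against 6.00% of their cancer-cell level. Median depth of the endothelial cells was 19243 against 6190 UMIs. The part of depth and of cancer-cell messages in the endothelial values of Tgfbr3 and Bmpr1a was not tested. In the pathway lists few genes passed. Of 12 targets in cancer cells 0 were higher and 1 lower, Id3 at 6.49 against 30.5 CPM (3.06% and 7.34% of all genes). Of 5 TGF-beta and activin ligands in stromal cells 1 was higher, Inhba at 377 against 140 CPM, and 0 lower (1.5% and 2.35%). Of 9 targets in endothelial cells 1 was higher, Ccn2 at 923 against 385 CPM, and 0 lower (2.15% and 8.22%). Acinar messages reached the classes of that library too, with a median of 12.8 per 10000 UMIs in its endothelial cells and 4.09 in its cancer cells, and their part in these values was not tested.

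**Figure D4:**
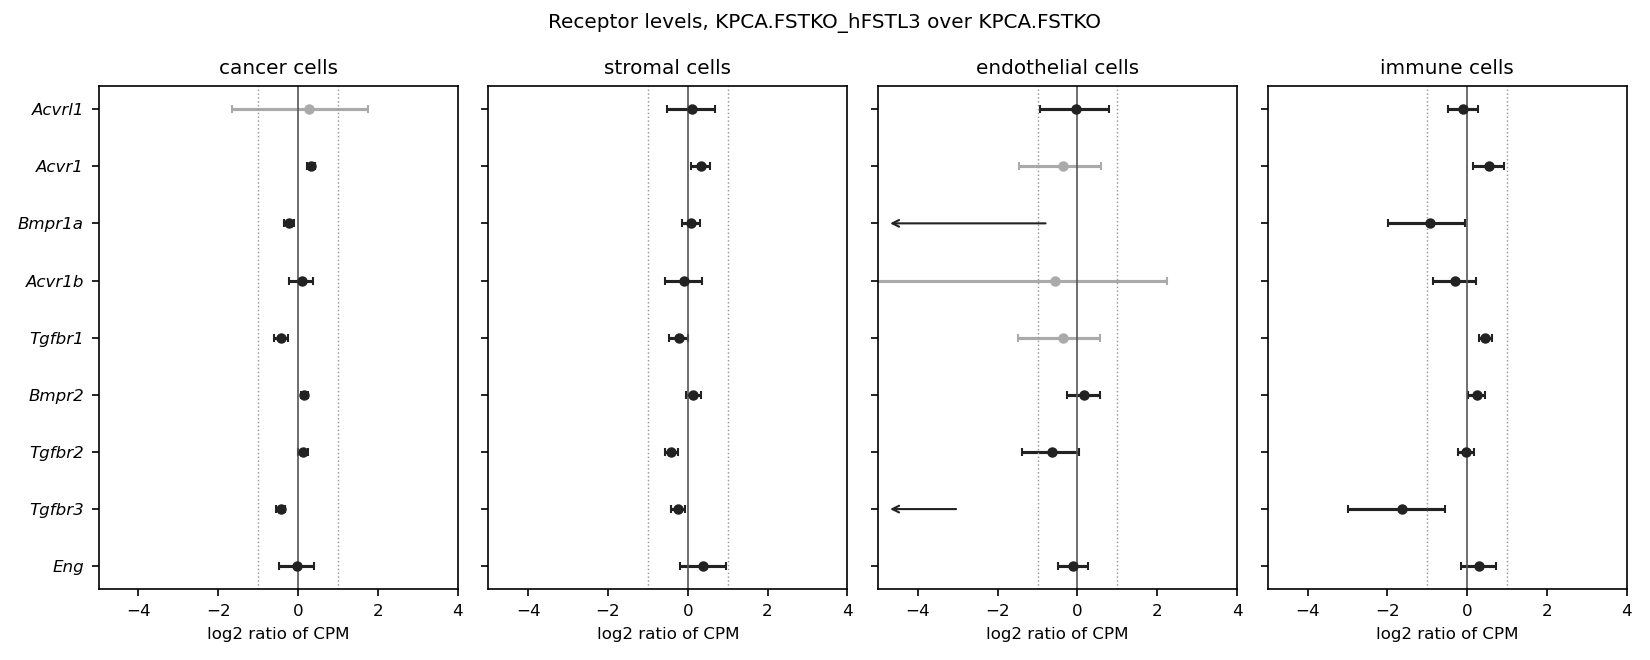
Log2 ratio of each receptor's CPM in KPCA.FSTKO_hFSTL3 over KPCA.FSTKO within cancer, stromal, endothelial and immune cells, with exact 95% intervals (counting error only); dotted lines mark ratios of 2 and 0.5, grey fewer than 100 UMIs over both libraries and arrows 0 UMIs in KPCA.FSTKO_hFSTL3. Tgfbr3 lies below 0 in the 4 classes as gated, but the immune ratio is 0.33 without the barcode filter, 1 of the 5 cancer clusters compared lies above 0, and the endothelial 0 becomes 10 or 20 UMIs with other gates.

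Each receptor except Acvr1c was finally set beside the genes with the most similar pattern, by Pearson correlation of log2(CPM + 1) over 10 finer classes of KPCA.FSTKO. These classes share 1 library and differ in depth. For Eng the nearest genes were Cyyr1 (r = 0.930), Abcg2 (0.920) and Nostrin (0.899). For Acvrl1 they were led by Sult1a1 (0.958), for Bmpr2 by Gm26632 (0.978), for Tgfbr2 by Csnk1a1 (0.991), for Tgfbr1 by Ssr1 (0.970) and for Tgfbr3 by Tacc2 (0.979). Acvr1 was nearest to Anks6 (0.979), Bmpr1a to Enpp5 (0.970) and Acvr1b to Nr4a1 (0.977). These values describe 10 points each and were chosen as the highest of many genes.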

How the data were processed

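The deposited counts are whole UMI counts per gene for the barcodes that the pipeline took as cells. Per the labels and methods, the authors pooled 4 tumors per genotype, made 10x 3-prime libraries and aligned them to mm10 with Cell Ranger 3.1.0, whereas the matrix header names version 7.2.0. Whether intronic reads were counted is not given in the sources used here. The deposited matrices held 7582 and 4244 barcodes, and the study's filters (mitochondrial share under 20%, more than 200 and fewer than 8000 genes), applied here, left 6777 and 4041.

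Classes came from summed marker UMIs per 10000 UMIs in each barcode. The gate minimums were set after the marker distributions were seen, Col3a1 and Fbln2 were dropped as present in 74.4% and 79.7% of KPCA.FSTKO barcodes, and barcodes with at least 20 acinar UMIs per 10000, under 1000 UMIs, past several gates or past none (312 in KPCA.FSTKO) were kept out. In KPCA.FSTKO 535 cancer cells lay within 2 times the gate minimum and 523 barcodes as near below it; for endothelial cells these numbers were 9 and 65. Doublets were kept. Scrublet in scanpy 1.11.5 marked 86 (1.27%) of the KPCA.FSTKO barcodes and 1 (0.0247%) of the others, at score thresholds of 0.300 and 0.563. Whether the caller worked in the second library was not tested, so doublets there remain unknown.

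Levels are the summed UMIs of a gene over the summed UMIs of all genes in a class, times 1000000 (CPM). Shares of cells were also computed with each cell thinned to 1000 UMIs, and a count of 0 was set to 3 counts for bounds. Clusters came from Seurat 5.3.0 in R 4.3.3 (2000 variable genes, 10 components, resolution 0.8). Gene spans came from GENCODE for GRCm38, with 99.6% of gene identifiers matched. Named genes were the 10 receptors, up to 4 genes per pathway list and comparison with most UMIs among those past the size rule, and the 3 most similar genes per receptor; a few items under these rules are not reported here. The members and lists were chosen with earlier results of these data known. The alternatives changed the filter, gates, clusters, scaling (TMM of edgeR 4.0.16), depth and thresholds, and 5 were added after seeing the data. Other tools were scipy 1.17.1, numpy 2.4.6, matplotlib 3.10.9, pandas 2.3.3, Matrix 1.6.5 and Python 3.11.15.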

Additional observations from a re-analysis of the deposited data

Results flagged for a closer look

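Tgfbr3 in endothelial over cancer cells drew attention because the libraries differed: KPCA.FSTKO gave a ratio of 1.97, while the 9 endothelial cells of KPCA.FSTKO_hFSTL3 held 0 UMIs (0 CPM), a ratio of 0. The difference between the libraries was not tested.

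Acinar-rich barcodes, used in no comparison between classes, made up 82.0% of the KPCA.FSTKO_hFSTL3 library and 0.487% of KPCA.FSTKO. In them Acvrl1 was at 7.79 CPM against 0.419 CPM in cancer cells of the same library (430 against 4 UMIs), a ratio of 18.6 (7.21 to 68.6), and Eng at 17.9 against 5.02 CPM, a ratio of 3.56 (2.67 to 4.86). Acvr1, Bmpr2, Bmpr1a and Tgfbr3 were at 0.501, 0.477, 0.527 and 0.611 times the cancer level there. These barcodes held mixed messages, with medians per 10000 UMIs of 28.3 for cancer, 28.8 for macrophage, 12.4 for fibroblast and 1.21 for endothelial markers (33.3, 0.360, 0.360 and 0.354 in the cancer cells), and the part of these in the ratios was not tested.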

How the results depend on the processing

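No paired analysis was possible because the genotypes share only replicate number 1, with 1 library each. Of 860 receptor ratios recomputed under the alternatives, 763 stayed within their interval. Of those past the size rule as reported, 1 changed sign, immune Tgfbr3 between genotypes, with a log2 ratio of 0.33 without the barcode filter (30 against 116 UMIs; -1.64 as reported). Over cancer cells, thinning left 3 receptors higher in endothelial (5 as reported), 3 in stromal (6) and 1 in immune cells (3), with fewer receptors past 100 UMIs, and a ratio of 1.5 gave 5 in immune cells. In endothelial cells 1 receptor, Bmpr1a, became lower (0 as reported) with mitochondrial share under 10%, raised gates, Seurat clusters, TMM, thinning, a ratio of 1.5 or, added later, without each gene's top cell, 1, Acvr1c, with a minimum of 20 UMIs, and 2 with the mean CPM per cell. Acvr1c had 0 endothelial against 24 cancer-cell UMIs. Its ratio interval reached 16.7, so that call says nothing of its endothelial level. TMM moved the median of all genes there from 0.09 to -0.31, with 1626 genes higher and 3807 lower (2529 and 2510 as reported), and thinning, which left 5919 genes to test, gave 821 and 1451. Between genotypes, leaving out the acinar rule gave 2 receptors higher (Acvrl1, Eng) and 1 lower (Tgfbr3) in cancer cells (0 and 0 as reported). A minimum of 20 UMIs gave 1 lower there, Acvr1c at 0 against 24 UMIs, with an upper limit of the log2 ratio of 0.97. Endothelial cells gave 0 lower with Seurat clusters or thinning and 2 with the acinar rule at 10, 20 UMIs, a ratio of 1.5 or without the top cell (1 as reported). Immune cells gave 0 lower without the filter, with mitochondrial share under 10%, raised gates, thinning, without Scrublet-marked barcodes or without the acinar rule, and 2 with the acinar rule at 10, TMM, mean CPM per cell or a ratio of 1.5 (1 as reported). The number of cells limits the endothelial class of KPCA.FSTKO_hFSTL3, which held 9. Apart from the fewer UMIs that thinning leaves, the cause of these changes was not tested.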
